A study of Homo sapiens with 3 samples.

Results

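The ADAR and APOBEC genes encode enzymes that edit nucleic acids by removing an amino group from a base. Their RNA levels were described in HepG2, a cell line grown from a human liver tumor. The 10 members are ADAR, ADARB1, APOBEC1, APOBEC3A, APOBEC3B, APOBEC3C, APOBEC3D, APOBEC3F, APOBEC3G and APOBEC3H. The rule that takes them uses gene names and no measured value, although the group was proposed with earlier results of these data known. It takes the rows of the deposited tables that carry these names on the main chromosome references, which leaves out alternative and unplaced sequences. All 10 were found, among 39320 such rows and 43389 rows in all.

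The study is on a splice variant of METTL3 in liver cancer. Polyadenylated RNA of wild-type HepG2 was sequenced in 3 libraries, replicates 1 to 3, with no other condition, genotype or treatment, so levels within a library could be compared and no change between conditions could be measured. Nothing says that the libraries came from separate cultures, so the SDs and p-values measure only the spread between these libraries, which may be technical. RNA levels are given in TPM, a unit that is scaled for transcript length and to an equal total per library, as mean ± SD over 3 libraries (n = 3).

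ADAR enzymes change adenosine to inosine in double-stranded RNA, and inosine is read as guanosine by the ribosome. This editing recodes some neuronal messages and keeps long duplexes of the cell's own RNA from setting off the interferon response. APOBEC enzymes change cytidine to uridine: APOBEC1 edits the APOB message in the small intestine, and the APOBEC3 enzymes deaminate single-stranded DNA of viruses and retroelements and can also mutate the genome of tumor cells.

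The libraries were first checked against markers of their labelled cell type. Of 11 hepatocyte markers, 2 had at least 1 TPM in every library, and the list summed to 35.3, 33.6 and 34.5 TPM in replicates 1, 2 and 3. VTN, which encodes vitronectin, was the most abundant of them at 23.3 TPM, while ALB, APOA1, APOB, SERPINA1, FGB and AHSG were listed at 0 in all 3 libraries. AFP, TTR and TF were low, with means of 0.0162, 0.118 and 0.0106 TPM. Whether the values of 0 mean that these transcripts were absent or that they were not estimated was not tested. As listed, the 9 markers below 1 TPM in every library go against a hepatocyte-like profile, while VTN and RBP4 do not. The name HepG2 is used here as the labels give it. Of 5 epithelial markers, 2 had at least 1 TPM in every library, the keratins KRT8 and KRT18, with at least 2588 and 1928 TPM in each library. All 8 housekeeping genes of a list reached 10 TPM in every library, from TBP at 15.9 TPM to GAPDH at 7264 TPM. Leukocytes are rich in several APOBEC3 enzymes in the body. Of 12 leukocyte markers, 0 reached 1 TPM in every library. The leukocyte list summed to 2.28, 2.00 and 1.75 TPM in replicates 1, 2 and 3, and PTPRC, CD3D, CD3E, CD4, MS4A1 and LYZ were listed at 0 in each. VWF, at 1.36 TPM, was the only 1 of 4 endothelial markers with at least 1 TPM in every library, and COL1A1, at 6.93 TPM, the only 1 of 4 fibroblast markers.

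At least 1 TPM in every library was reached by 4 of the 10 editing enzymes, or 40% of them: ADAR, APOBEC3B, ADARB1 and APOBEC3C. The same minimum was reached by 33.8% of all rows and by 59.5% of the protein-coding genes, so the share of the enzymes lay between these backgrounds. ADAR, APOBEC3B and ADARB1, 3 of the 10, reached 10 TPM in each library as well, as did 20.7% of all rows and 40.4% of the protein-coding genes. The other 6 were below 1 TPM in each library, and of these APOBEC1 and APOBEC3G were listed at 0 throughout. The median of the mean levels was 0.404 TPM over the 10 enzymes, 0.0619 TPM over all rows and 4.99 TPM over protein-coding genes. In bulk RNA, few cells with much of a transcript and many cells with little of it cannot be told apart.

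**Figure D1:**
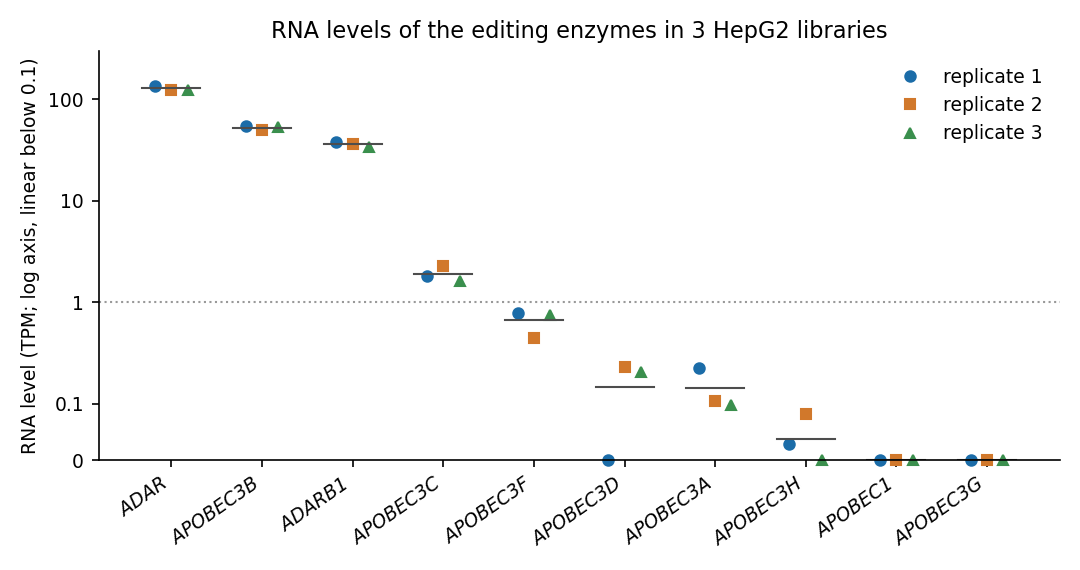
RNA level of each editing enzyme in TPM (vertical axis, logarithmic above 0.1 and linear below), with 1 symbol per library, a bar at the mean and a dotted line at 1 TPM. ADAR, APOBEC3B and ADARB1 lie between 33.5 and 136 TPM, and APOBEC1 and APOBEC3G lie at 0 in all 3 libraries.

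ADAR was the most abundant of the enzymes. It encodes the widely expressed adenosine deaminase that edits most double-stranded RNA made from repeats. ADAR had 136, 122 and 125 TPM in replicates 1, 2 and 3, a mean of 127 ± 7.21 TPM. Replicate 1 was the highest and the other libraries were close to each other. The coefficient of variation was 5.66% over all 3 libraries and 1.27% without replicate 1. Its mean ranked 1135 among the 13753 genes that averaged 1 TPM or more. The deposited coverage of ADAR was 406, 359 and 326 in replicates 1, 2 and 3. Coverage usually means the read depth averaged over a gene's bases, but how it was computed is not given in the sources used here.

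In GRCh38, the deposited row of ADAR covers 154582057 to 154631560 on the minus strand of chromosome 1. Its canonical transcript in GENCODE v44 has 15 exons and encodes a protein of 1226 residues. The row of CHRNB2, a subunit of the nicotinic acetylcholine receptor on the opposite strand, overlaps the 3′ end of ADAR over 2652 bp. CHRNB2 was listed at 0, 0.179 and 0.253 TPM, and as the strand setting of the counting is not given in the sources used here, reads of this overlap cannot be assigned to either strand.

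ADARB1 encodes the other catalytically active adenosine deaminase, which is known for recoding glutamate receptor messages in neurons. ADARB1 had 38.0, 35.9 and 33.5 TPM in replicates 1, 2 and 3, a mean of 35.8 ± 2.26 TPM, which ranked 3952 among the same 13753 genes. Each library of ADARB1 was below each library of ADAR and of APOBEC3B. Its row lies on the plus strand of chromosome 21 from 45074578 to 45226563, and its canonical transcript of 11 exons encodes 701 residues. The whole row of LOC105372835, a locus on the opposite strand with a mean of 2.52 TPM, lies inside the row of ADARB1.

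The question put to the adenosine deaminases was which of them is more abundant within a library. ADAR had 3.57, 3.40 and 3.72 times the TPM of ADARB1 in replicates 1, 2 and 3. On the log2(TPM + 1) scale the difference was 1.80 ± 0.06, higher for ADAR in 3 of 3 libraries, with p = 0.25 by exact permutation (sign flips, two-sided) and 0.25 after Benjamini-Hochberg adjustment over 6 comparisons. This p is the smallest that 3 libraries allow, so here and in the other comparisons the size and its spread carry the information.

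The size of this difference depended on the unit. The coverage of ADARB1 was 18.4, 17.1 and 14.4 in replicates 1, 2 and 3, so that ADAR exceeded it 21.9 ± 0.879 times in coverage, against 3.56 ± 0.158 times in TPM. The ratio of coverage to FPKM, a level scaled for length and library size, has a highest value in each library, and APOBEC3B lay at it in all 3. Relative to that highest value, ADAR lay at 0.477, 0.478 and 0.476 in replicates 1, 2 and 3, and ADARB1 at 0.0773, 0.0776 and 0.0781. These ratios differed little between libraries but widely between the genes. Among the 8419 genes that averaged 10 TPM or more, 3.06% had a lower ratio than ADARB1 and 26.3% a lower ratio than ADAR in replicate 1, where the median was 0.792. Relative to its FPKM, ADARB1 thus had a lower deposited coverage than most of these genes. As the ratio is not the same for all genes, coverage and FPKM cannot be converted into each other here, and which unit is closer to the RNA level of ADARB1 was not tested.

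**Figure D2:**
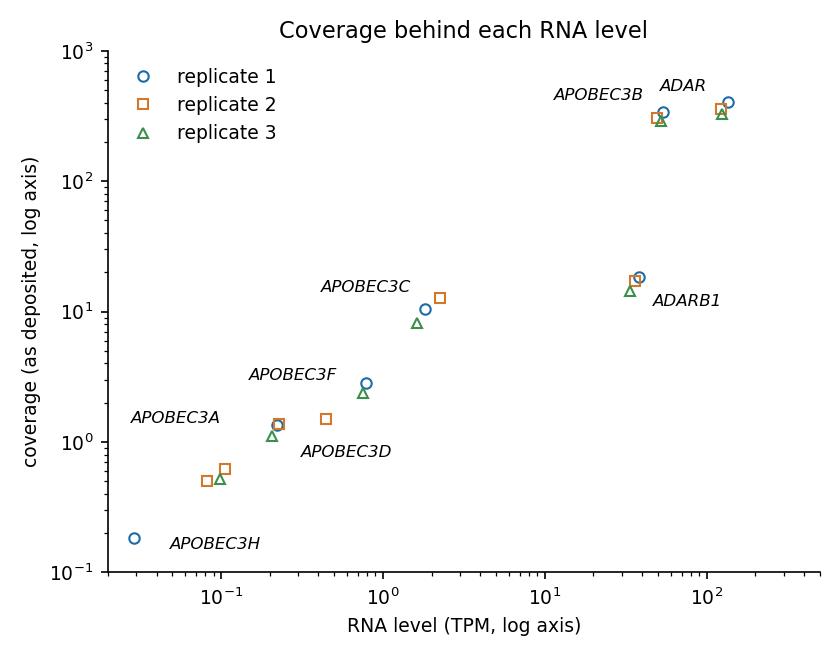
Coverage as deposited (vertical logarithmic axis) against RNA level in TPM (horizontal logarithmic axis) for each editing enzyme above 0, with 1 symbol per library. The APOBEC3 genes and ADAR rise together, and ADARB1 lies below them, with a coverage of 16.6 ± 2.07 at 35.8 TPM against 311 ± 25.8 for APOBEC3B at 52.1 TPM.

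APOBEC3B, which encodes a nuclear DNA cytidine deaminase linked to mutations in several tumor types, was the most abundant cytidine deaminase among the members. APOBEC3B had 54.1, 49.6 and 52.6 TPM in replicates 1, 2 and 3, a mean of 52.1 ± 2.30 TPM. The libraries were within a coefficient of variation of 4.41%, and its mean ranked 2884 among the 13753 genes. It lay below ADAR by 2.45 ± 0.0721 times in TPM and by 1.17 ± 0.0359 times in coverage. APOBEC3B exceeded ADARB1 1.46 ± 0.0996 times in TPM and 18.8 ± 1.20 times in coverage. In both units the order of ADAR, APOBEC3B and ADARB1 was the same in each library.

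APOBEC3C encodes an enzyme with a single deaminase domain and moderate activity on retroelements. APOBEC3C had 1.82, 2.26 and 1.62 TPM in replicates 1, 2 and 3, a mean of 1.90 ± 0.326 TPM. Replicate 2 was the highest, every library stayed above 1 TPM, and the coverage was 10.5, 12.8 and 8.24. Its mean ranked 12462 among the 13753 genes.

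APOBEC3F and APOBEC3D encode enzymes with a pair of deaminase domains that restrict retroviruses. APOBEC3F had 0.788, 0.445 and 0.755 TPM in replicates 1, 2 and 3, with the lowest value in replicate 2. APOBEC3D was listed at 0, 0.228 and 0.206 TPM, so that it was above 0 in replicates 2 and 3 and below APOBEC3F in every library. The coverage of APOBEC3D was at most 1.36 and that of APOBEC3F at most 2.82.

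APOBEC3A, a potent DNA mutator found in myeloid cells, had 0.223, 0.106 and 0.0982 TPM in replicates 1, 2 and 3. The levels of APOBEC3A and APOBEC3D overlapped between libraries, so their order is not set by these data. APOBEC3H, which encodes a single-domain enzyme that occurs as variants of unequal stability in people, was listed at 0.0291, 0.0821 and 0 TPM. APOBEC3G, the best-known restriction factor of HIV, was listed at 0 in replicates 1, 2 and 3. APOBEC3H, which reached 0 in replicate 3, was not separated from APOBEC1 and APOBEC3G, nor were these from each other. From ADAR down to APOBEC3F, and between APOBEC3F and APOBEC3D and between APOBEC3A and APOBEC3H, the libraries of neighbours in the order did not overlap.

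Together, the 7 APOBEC3 genes summed to 57.0, 52.7 and 55.3 TPM in replicates 1, 2 and 3. APOBEC3B took 95.0%, 94.1% and 95.1% of this sum, a mean of 94.7% ± 0.573. APOBEC3C followed with 3.47% ± 0.716 and APOBEC3F with 1.20% ± 0.306, or 0.682% when coverage was summed in place of TPM. Without APOBEC3B, the other 6 summed to 2.86, 3.12 and 2.68 TPM. As listed, the APOBEC3 message of these libraries was thus mostly that of APOBEC3B. The sum takes each value of 0 as it stands, such as that of APOBEC3G, although it sets no upper limit.

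APOBEC3B was compared with each other APOBEC3 gene within a library, and was taken as the reference because it is the constitutively nuclear paralog. It had 29.7, 22 and 32.4 times the TPM of APOBEC3C, and 68.7, 111 and 69.7 times that of APOBEC3F, in replicates 1, 2 and 3. On the log2(TPM + 1) scale, which understates the distance to low genes, the difference was 4.20 ± 0.21 against APOBEC3C, 5.003 ± 0.11 against APOBEC3F and 5.54 ± 0.06 against APOBEC3A. It was 5.54 ± 0.22 against APOBEC3D and 5.68 ± 0.11 against APOBEC3H, both with a library listed at 0. All 5 differences were positive in 3 of 3 libraries, which restates that APOBEC3B was the highest APOBEC3 gene in each. Each had p = 0.25 by the same exact permutation and 0.25 after adjustment over the same 6 comparisons. With a pseudocount of 0.1 in place of 1, they ran from 4.72 against APOBEC3C to 8.62 against APOBEC3H. APOBEC3G, listed at 0, was given no ratio.

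The APOBEC3 genes lie side by side on the plus strand of chromosome 22, where their rows span 146546 bp from 38957522 to 39104067. APOBEC3B runs from 38982347 to 38992779, with a gap of 19162 bp to APOBEC3A before it and of 21456 bp to APOBEC3C after it. The nearest neighbours on either side had 0.142 ± 0.0700 and 1.90 ± 0.326 TPM. As listed, the high level in the cluster was therefore confined to the row of APOBEC3B among the 7 APOBEC3 rows of these libraries. Beside the cluster, the Polycomb genes CBX6 and CBX7 had 34.9 ± 3.08 and 1.80 ± 0.163 TPM.

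Between CBX6 and CBX7 lay 13 rows, of which 6 were not APOBEC3 enzymes. Of these 6, 5 were listed at 0 in every library. The other was APOBEC3B-AS1, an antisense RNA that overlaps the 3′ end of APOBEC3B over 1221 bp, with 0.128, 0.122 and 0.174 TPM. APOBEC3A_B, a row for the fusion of both genes on an alternative reference, was listed at 0 in replicates 1, 2 and 3.

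**Figure D3:**
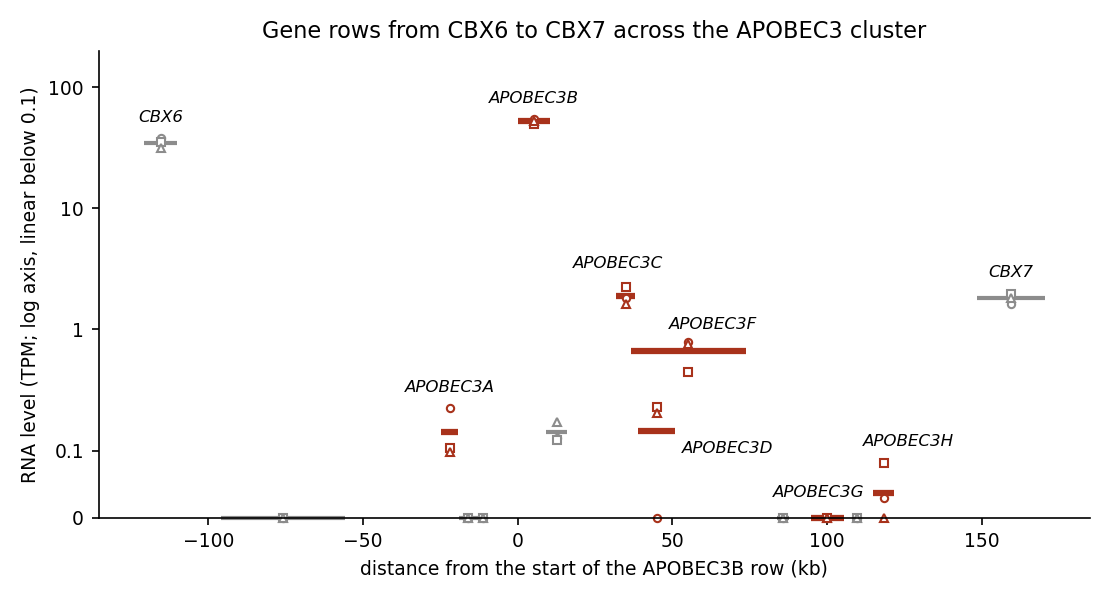
Gene rows from CBX6 to CBX7, drawn from start to end by their distance in kb from the start of APOBEC3B (horizontal axis) at their mean level in TPM (vertical axis, logarithmic above 0.1 and linear below), with APOBEC3 rows in red, other rows in grey and symbols for replicates 1 (circle), 2 (square) and 3 (triangle). APOBEC3B stands at 52.1 TPM, and the other APOBEC3 rows lie at or below 1.90 TPM.

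The rows of this cluster are not independent. The deposited row of APOBEC3F, from 39019081 to 39055972, contains the row of APOBEC3D and overlaps that of APOBEC3C over 1272 bp on the same strand. The canonical transcript of APOBEC3F begins at 39040864, beyond the end of APOBEC3D at 39033277. How reads of this stretch were divided between APOBEC3C, APOBEC3D and APOBEC3F is not given in the sources used here, so the levels of these 3 genes are uncertain.

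The paralogs also share sequence. In the canonical transcript of APOBEC3B, of 1590.0 bases, 8.61% of all windows of 150 bases, the length of a read, occur unchanged in the canonical transcript of another APOBEC3 gene. The share was 26.8% for windows of 75 bases and 34.6% for windows of 50 bases. Its longest common stretches were 199 bases with APOBEC3D and 196 bases with APOBEC3A. APOBEC3D and APOBEC3F shared up to 222 bases and APOBEC3F and APOBEC3G up to 206 bases. APOBEC3C and APOBEC3H had 0% of windows of 150 bases in common with other APOBEC3 transcripts, as had ADAR and ADARB1 with each other. A single read that begins and ends in a common stretch cannot be assigned by its own sequence. The reads came in pairs, and the share of pairs within common stretches was not computed. The low levels of APOBEC3A and APOBEC3D are uncertain for this reason too, as both share sequence with the far more abundant APOBEC3B.

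APOBEC1, the catalytic subunit of the APOB editing complex, was listed at 0 in replicates 1, 2 and 3. Its row covers 7649400 to 7670599 on the minus strand of chromosome 12. APOB, its classical target, was likewise listed at 0 in all 3 libraries, so neither the enzyme nor this target gave a level here. Of 7 genes for proteins reported to work with APOBEC1, 6 had at least 1 TPM in every library, which 59.5% of all protein-coding genes reached. The RNA-binding proteins HNRNPAB, KHSRP and SYNCRIP had 436, 223 and 93.1 TPM, and the cochaperone DNAJB11 had 92.8 TPM. CELF2 had 10.2 TPM and RBM47, which can act as an editing cofactor, had 6.53 TPM. The ratio of coverage to FPKM, relative to the highest of the library, was 0.0340 for CELF2 and 0.0955 for RBM47 in replicate 1, so the doubt about the unit raised for ADARB1 holds for both. A1CF, the complementation factor first found with APOBEC1, was listed at 0, 0 and 0.00521 TPM.

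Among 12 other deaminase genes, 6 reached 1 TPM in every library, near the share of 59.5% of protein-coding genes. CDA, which salvages free cytidine, was the most abundant with 149, 156 and 158 TPM in replicates 1, 2 and 3, and was thus above ADAR in each. DCTD, which makes deoxyuridylate, had 27.7, 25.9 and 24.5 TPM. The adenosine deaminases of transfer RNA, ADAT1, ADAT2 and ADAT3, had 13.5, 2.77 and 5.02 TPM, and CDADC1 had 5.76 TPM. ADARB2, ADAD1 and ADAD2, relatives of ADAR that lack known editing activity, were listed at 0 in every library. APOBEC2 was listed at 0, 0 and 0.0321 TPM and APOBEC4 at 0, 0 and 0.0471 TPM, so that both were above 0 in replicate 3 only.

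All 11 listed partners and regulators of ADAR reached 10 TPM in every library, against 40.4% of all protein-coding genes. ILF2, a subunit of a double-stranded RNA-binding complex, was the most abundant at 419 TPM. SRSF9 had 308 TPM and DHX9, a helicase that unwinds duplexes bound by ADAR, 196 TPM. WWP2, which promotes the breakdown of the ADARB1 protein, had 19.1 TPM.

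Of 10 sensors of double-stranded RNA, 8 had at least 1 TPM in every library, against the same 59.5%. OAS3, which makes the activator of RNase L, was the most abundant with 60.6 TPM. EIF2AK2, the kinase PKR that ADAR keeps in check, had 31.5, 24.4 and 25.5 TPM, and IFIH1, the sensor MDA5, had 6.21, 5.89 and 4.64 TPM. Both were thus below ADAR in each library. ZBP1, a sensor of left-handed duplexes, was listed at 0 in replicates 1, 2 and 3.

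Of 13 genes of interferon signalling and response, 12 had at least 1 TPM in every library, against 59.5% of protein-coding genes. ISG15 was the most abundant of them, at 815 TPM, while MX1 had 1.27 TPM. IFNB1, the gene of interferon beta itself, was listed at 0, 0.227 and 0.0703 TPM. ADAR and several APOBEC3 genes are known to be interferon-responsive. The part of interferon in their levels was not tested, as the libraries hold no other condition.

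Levels were also read for lists of known editing targets and of repair enzymes. Of 14 genes whose transcripts are known to be edited or recoded, 11 passed 1 TPM in every library, against 59.5% of protein-coding genes. FLNA, recoded mainly by ADARB1, had 594 TPM, and AZIN1 and COPA, recoded in liver cancers, had 42.2 and 145 TPM. NF1, an additional APOBEC1 target, had 17.2 TPM, whereas GRIA2, the glutamate receptor message edited by ADARB1, was listed at 0, 0.00428 and 0 TPM. These values are levels of the messages, and editing itself was not measured. All 10 genes of uracil repair also reached 10 TPM in every library, again against 40.4% of protein-coding genes. UNG, which removes uracil left in DNA by APOBEC enzymes, had 90.3, 85.0 and 80.2 TPM, above APOBEC3B in each library. APEX1, which cuts the resulting abasic site, had 247 TPM, HMCES, which shields such sites in single-stranded DNA, 102 TPM, and SMUG1, a further uracil glycosylase, 31.9 TPM.

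**Figure D4:**
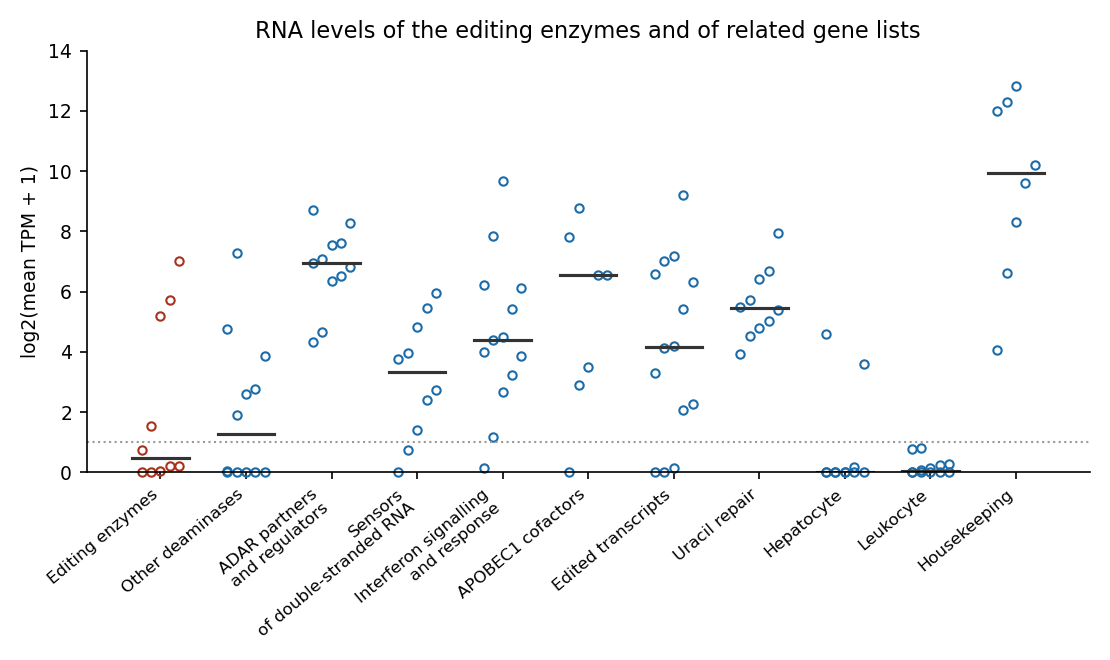
Level of each gene as log2(mean TPM + 1) over 3 libraries (vertical axis) for the 10 editing enzymes (red) and for lists of related genes (blue), with a bar at the median of each list and a dotted line at 1 TPM. The enzymes have a median of 0.404 TPM, against 42.4 TPM for uracil repair and 123 TPM for ADAR partners and regulators.

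Variation between libraries was small in the abundant enzymes and larger in the low ones. The range of log2(TPM + 1) was 0.15 for ADAR, 0.18 for ADARB1, 0.12 for APOBEC3B and 0.31 for APOBEC3C. None of these 4 enzymes (0 of 4) had a range above 1, which occurred in 1.26% of the 13753 genes that averaged 1 TPM or more. ADAR, ADARB1 and APOBEC3B had coefficients of variation of 5.66%, 6.31% and 4.41%, and the median over 8419 genes that averaged 10 TPM or more was 4.88%, with quartiles of 2.96% and 7.25%. With median-of-ratios scaling these were 3.31%, 3.55% and 3.92%, and the median was 4.09%, so whether ADAR and ADARB1 lay above or below the median depended on the scaling. Leaving out a replicate gave 1.27% to 7.37% for ADAR, 3.94% to 8.92% for ADARB1 and 2.02% to 6.16% for APOBEC3B. APOBEC3C, at a lower level and coverage, reached 17.1%, and 8.11% to 23.2% with a replicate left out. Below 1 TPM, the coefficient of variation was 28.6% for APOBEC3F, 49.2% for APOBEC3A, 86.9% for APOBEC3D and 112% for APOBEC3H. With a replicate left out these ran from 3.10% to 39.4% for APOBEC3F, 5.19% to 55.0% for APOBEC3A, 7.15% to 141% for APOBEC3D and 67.5% to 141% for APOBEC3H, so they depended strongly on single libraries. In enzymes this low, a range of log2(TPM + 1) above 1 cannot occur. With a pseudocount of 0.1 and no minimum, chosen after seeing the data, 1 of the 8 enzymes above 0 in some library passed, APOBEC3D with a range of 1.71, or 0.10 without replicate 1, and so did 13.4% of all such rows.

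Promoter sequence was taken from a table made from RefSeq (GRCh38.p14), which is not complete and in which 4 of the 10 members were matched. All 4 are shown, and APOBEC3B is not among them. They include an enzyme of the highest level, an enzyme at an intermediate level and a pair of enzymes at or near 0. They differ in CpG dinucleotides, which are printed in capitals. Each window of 220 bases runs, on the strand of the gene, from 250 to 31 bases before a start, and overlaps no GENCODE v44 exon. The start is the farthest upstream of those available here, which need not be the farthest of the gene. The windows lie at chr1:154628028-154628247 (minus strand) for ADAR, at chr21:45074328-45074547 (plus strand) for ADARB1, at chr12:7665939-7666158 (minus strand) for APOBEC1 and at chr22:39096994-39097213 (plus strand) for APOBEC3H. Those of ADAR and APOBEC1 lie inside the deposited row of the gene, which reaches farther upstream, to 154631560 and 7670599. Of the window of APOBEC3H, 11 bases lie inside its row.
ADAR: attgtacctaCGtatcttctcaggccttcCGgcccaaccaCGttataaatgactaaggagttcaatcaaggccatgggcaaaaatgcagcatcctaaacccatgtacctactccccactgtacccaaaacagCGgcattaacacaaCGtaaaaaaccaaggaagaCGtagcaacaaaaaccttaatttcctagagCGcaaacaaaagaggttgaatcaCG
ADARB1: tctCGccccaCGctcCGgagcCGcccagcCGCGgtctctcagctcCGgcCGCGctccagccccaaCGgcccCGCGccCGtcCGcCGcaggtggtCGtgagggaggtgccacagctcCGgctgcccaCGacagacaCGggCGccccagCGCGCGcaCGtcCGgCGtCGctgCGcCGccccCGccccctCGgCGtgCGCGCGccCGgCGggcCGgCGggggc
APOBEC1: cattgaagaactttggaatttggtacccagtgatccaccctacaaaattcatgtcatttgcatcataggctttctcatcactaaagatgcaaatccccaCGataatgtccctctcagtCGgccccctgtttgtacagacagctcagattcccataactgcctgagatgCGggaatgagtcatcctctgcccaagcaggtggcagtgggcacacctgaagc
APOBEC3H: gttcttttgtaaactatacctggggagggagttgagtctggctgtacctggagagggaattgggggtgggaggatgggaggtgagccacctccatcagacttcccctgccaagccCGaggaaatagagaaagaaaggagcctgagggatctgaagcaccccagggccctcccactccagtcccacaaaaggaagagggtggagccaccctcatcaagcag

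The window of ADARB1 held 39 CpG dinucleotides and had a GC content of 82.3%. Fewer CpG dinucleotides were found in 99.1% of the same windows of 14963 protein-coding genes. ADAR held 8, more than 30.6% of these genes, and APOBEC1 and APOBEC3H held 3 and 1. Among the starts available here, ADAR has 3, whose windows held 5 to 11, and ADARB1 has 4, whose windows held 9 to 40. Across all genes, at least 1 TPM in every library was reached by 21.1% of those with 0 to 4 CpG dinucleotides, 61.1% of those with 5 to 14 and 80.4% of those with at least 15. Of the 4 enzymes with a window, ADAR and ADARB1 reached 1 TPM in every library, and APOBEC1 and APOBEC3H did not. The printed window of ADAR lies upstream of the start of its canonical transcript at 154608186. The class of ADARB1 depends on the start, as its windows held 9 to 40. Which starts these libraries used was not tested, and the other members have no window here. A relation of CpG content to level in these enzymes was not tested.

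The windows of all 9 starts available here for these 4 enzymes were also searched on both strands. The motifs were GAAANNGAAA, the core of the interferon-stimulated response element, and TTCNNNGAA, the core bound by STAT dimers. Neither was found in any of them. They occur in 2.39% and 5.59% of the 14963 windows, so a motif is rare in windows of this length, and its absence says only that these letters are not there.

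**Figure D5:**
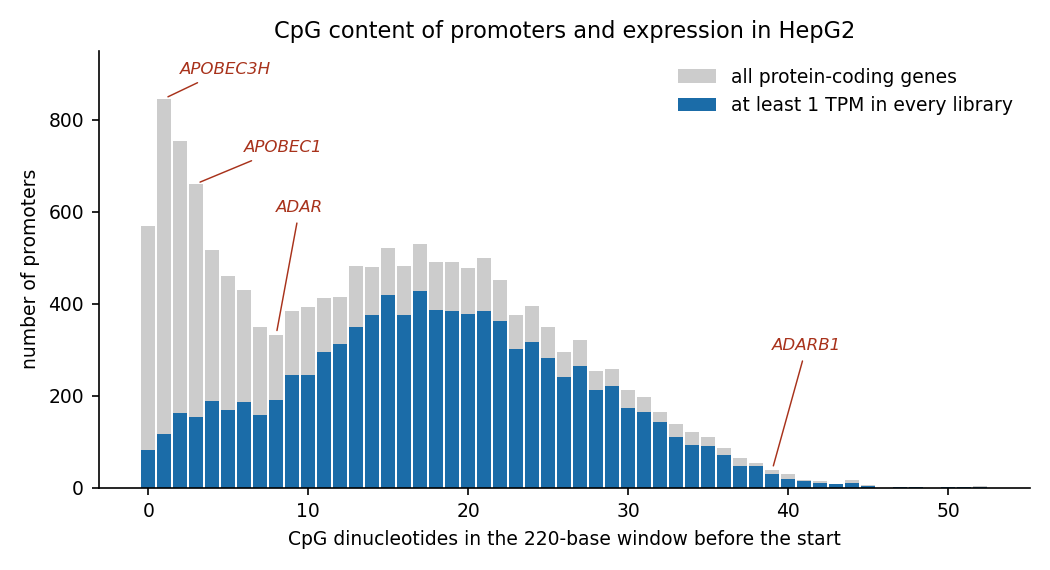
Number of protein-coding genes (vertical axis) by the CpG dinucleotides in their promoter window of 220 bases (horizontal axis), in grey for all 14963 genes and in blue for those with at least 1 TPM in every library. APOBEC3H, APOBEC1, ADAR and ADARB1 are marked at 1, 3, 8 and 39 CpG dinucleotides.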

How the data were processed

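RNA of wild-type HepG2 was sequenced in 3 libraries. The genome build was GRCh38, and STAR v2.6.1a served as the aligner. Before alignment the authors ran Trim Galore v0.6.2 and FastQC v0.11.8 on the reads, which came in pairs of 150 bp each. StringTie appears in the submitters' processing notes with no version or role, and the annotation and strand setting are not given in the sources used here. Of the deposited columns, coverage usually stands for read depth that is not adjusted for the size of the library. How it was computed, also against FPKM, is not given in the sources used here, and what it measures was not tested. Deposited FPKM is adjusted for both length and library size. Deposited TPM is adjusted for length and adds up to an equal total per library. The tables hold no counts, so the number of reads is unknown and no counting error is given. If coverage is read depth, its ratio to FPKM is a relative measure of depth. This ratio reached at most 13.3, 12.8 and 11.5 in replicates 1, 2 and 3.

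Tables were joined by gene, strand and coordinates, and 6 rows without a partner were left out. Of the rows above 0 in both libraries of a pair, 3 to 7 had TPM values equal to the last deposited decimal, so no table was a copy of another. TPM was used as deposited. Within each library, log2(TPM + 1) was compared between genes, and differences were tested by exact permutation of their signs over libraries (two-sided), adjusted by Benjamini-Hochberg. A minimum of 1 TPM in every library and a range of log2(TPM + 1) above 1 were counted. The range calculation was tested on simulated data. DDX15 was matched through its symbol DHX15. All members, rows that overlap them or flank the APOBEC3 cluster, and genes of fixed lists of deaminases, cofactors, partners, sensors, interferon genes, repair enzymes, edited transcripts and cell type markers could be named: every gene of the deaminase, cofactor and repair lists, and of the others the most abundant, those at 0 and up to 6 more by role. No genes were ranked by likeness of pattern, since replicates of 1 condition have none. A few genes of these lists are not reported here by name. The members and lists were chosen with earlier results of these data known. Transcript windows and promoter windows were analysed with GENCODE v44 and RefSeq after the data had been seen. Calculations used Python 3.11.15, numpy 2.4.6, pandas 2.3.3 and matplotlib 3.10.9. The alternatives were a pseudocount of 0.1, FPKM or coverage in place of TPM, other minimums, other scalings and leaving out each replicate.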

Additional observations from a re-analysis of the deposited data

How the results depend on the processing

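All 6 differences between enzymes kept their direction with a pseudocount of 0.1, with FPKM, with coverage and without each replicate. The difference of ADAR and ADARB1 was 4.37 on the log2 scale in coverage, 1.77 in FPKM and 1.77 to 1.84 without a replicate, against 1.80. That of APOBEC3B and APOBEC3C ran from 4.12 to 4.32 without a replicate and was 3.76 in FPKM and 4.78 in coverage, against 4.20. The differences of APOBEC3B from APOBEC3A, APOBEC3D, APOBEC3F and APOBEC3H were 6.61 to 8.01 in coverage and 4.30 to 4.67 in FPKM, where the same pseudocount weighs differently. With a replicate left out, the smallest p of the exact test is 0.5, so these p-values say nothing about stability. The number of enzymes with at least 1 TPM in every library was 5 at a minimum of 0.1 TPM, which adds APOBEC3F, 3 at a minimum of 10 TPM, and 4 without mitochondrially encoded genes, with median-of-ratios scaling and without each replicate. The number with a range above 1 was 0 with a pseudocount of 0.1, with median-of-ratios scaling and without each replicate, all among enzymes that averaged 1 TPM or more. Dropping this minimum alone could not change it, since the added enzymes are too low to pass. With a pseudocount of 0.1 and no minimum, chosen after seeing the data, the number was 1, APOBEC3D, which is listed at 0 in replicate 1. Scaling without mitochondrially encoded genes, which took 19.9%, 20.2% and 20.2% of TPM in replicates 1, 2 and 3, raised ADAR to 160 TPM, APOBEC3B to 65.2 TPM, ADARB1 to 44.8 TPM and APOBEC3C to 2.38 TPM. In coverage, APOBEC3B took 95.5% and APOBEC3F 0.682% of the APOBEC3 sum. The ratio of APOBEC3B and APOBEC3G was not run, since APOBEC3G is listed at 0. Between conditions, no paired analysis was possible because these libraries hold 1 condition, while the differences between enzymes were taken within each library and are thus paired by library. Without counts, a value of 0 sets no upper limit on a level.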
